A study of Arabidopsis thaliana with 30 samples.

Results

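Wild-type Arabidopsis seedlings given 1 h of light rich in far-red (FR1) were compared with wild-type seedlings at the start of the treatment (WL0). The comparison took the 3 FR1 arrays and the 3 WL0 arrays, 6 of the 30 arrays of the series, and was made across all 22746 probe sets that are not controls on the array. Of these, 13436 had exactly 1 gene locus in the annotation used here, and only those are named. Arrays were assigned by their labels alone, so no measured value entered the choice. The study gave whole seedlings, Columbia wild type or the mutant line pifq, up to 24 h of far-red light and measured gene expression on 1-colour arrays, in 10 groups of 3 biological replicates that the labels describe as grown separately. FR1 seedlings spent 2 days in white light (19 µmol/m2/s) and then 1 h in the same light with far-red added, which set the ratio of red to far-red to 0.006. WL0 seedlings were collected after the same 2 days, at a ratio of 6.48. Seeds of every group had first spent 5 days dark and cold (4 °C) and 1.5 h in white light, and the seedlings grew at 21 °C on medium without sucrose. Further groups used beside the comparison were pifq at FR1 and WL0 under the same 2 light conditions, wild type after 3 h of far-red light (FR3) and wild type after 24 more h of white light (WL24). The pifq line is mutated in PIF1, PIF3, PIF4 and PIF5, of which none had a probe set with a single locus here, so the genotype labels could not be checked on the mutated genes. FR1 seedlings were 1 h older than WL0 seedlings, and far-red light and the passing of that hour cannot be told apart.

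Plants read the ratio of red to far-red light with phytochromes, receptors that are switched on by red and off by far-red light. Light filtered by leaves is rich in far-red and turns phytochromes off, which lets PIF transcription factors accumulate, bind DNA and activate target genes. The resulting shade avoidance response is known in seedlings for fast auxin synthesis and signalling and for elongation of the hypocotyl.

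Values are log2 RMA signals, a measure of probe set brightness on a log2 scale, and changes are log2 differences, FR1 minus WL0, ± SE. P-values are two-sided, from a limma fit across all probe sets, with Benjamini-Hochberg adjustment over the 22746 probe sets. A probe set is called at an adjusted p under 0.05, and rose or fell is written only of called ones. Arrays of 1 group correlated across probe sets at 0.9958 to 0.9972 in FR1 and at 0.9976 to 0.9978 in WL0, while FR1 and WL0 arrays correlated at 0.9885 to 0.9921. No 2 arrays were identical, and the number of arrays limits the precision.

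The response at 1 h was broad, and most of it was small. In all 5267 probe sets were called (23.2%), of which 2432 were higher (10.7%) and 2835 lower (12.5%). Of the called probe sets 4397 (83.5%) changed by less than 1.5-fold, and the median size of a called change was 0.389. At least 2-fold, 132 probe sets rose (0.58%) and 37 fell (0.163%), and at least 4-fold the counts were 23 and 0. When arrays were scaled to 3 reference genes, 102 rose and 90 fell at least 2-fold. In each of the 132 rises and 37 falls the 3 FR1 arrays lay wholly beyond the 3 WL0 arrays. Over all probe sets the 3 FR1 arrays lay above the WL0 arrays in 15.7% and below them in 21.3%. Only 54 of the 132 rises and 16 of the 37 falls had a single locus, so more than these named genes changed. The median change over all probe sets was -0.0259. Of the calls 46.2% were higher, but 16.8% with that scaling, which moved the median of all probe sets to -0.153; rises and falls are therefore relative to the bulk of probe sets.

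**Figure D1:**
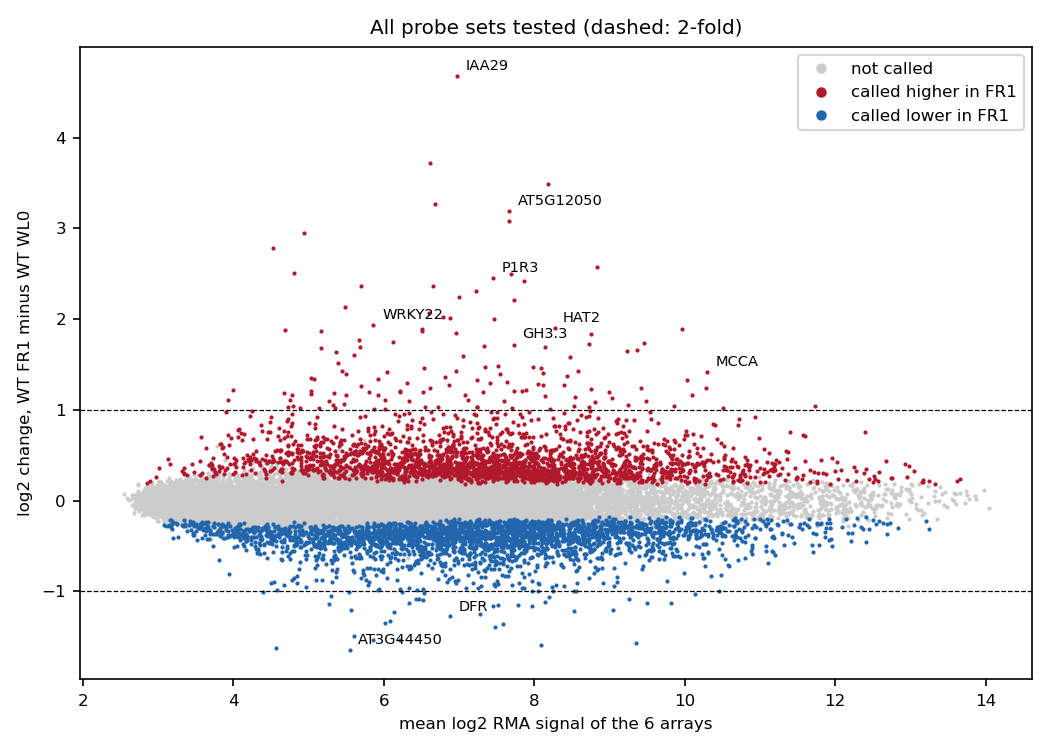
Each point is 1 of the 22746 probe sets, with the mean log2 RMA signal of the 6 arrays across and the log2 change (WT FR1 minus WT WL0) upward. Red points were called higher and blue points lower in FR1, and the dashed lines mark 2-fold. The largest rise is IAA29 at 4.68, while the largest fall is AT3G44450 at -1.65.

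Of the 23 probe sets that rose at least 4-fold most are unnamed here, and ranks below are among probe sets with a single locus. Among these, IAA29, P1R3 and HAT2, genes known from the early shade response, were rises 1, 3 and 6. IAA29 (AT4G32280), an Aux/IAA repressor of auxin response, read 9.45, 9.17 and 9.34 in the FR1 arrays, against 4.72, 4.63 and 4.55 in the WL0 arrays. Every FR1 array stood far above every WL0 array, a change of 4.68 ± 0.13 (25.7-fold, adjusted p = 6.08e-22). HAT2 (AT5G47370), a homeodomain-leucine zipper transcription factor gene, read 9.21, 9.14 and 9.33 in FR1, against 7.34, 7.29 and 7.33 in WL0. The spread within each group was small beside the gap of 1.90 ± 0.09 between them (adjusted p = 6.26e-16). P1R3 (AT3G29370) read 8.97, 8.57 and 8.52 in FR1, against 6.47, 5.96 and 6.26 in WL0, and rose by 2.45 ± 0.14 (adjusted p = 3.38e-14). FHL (AT5G02200), whose product carries phytochrome A into the nucleus, read 4.18, 4.00 and 4.23 in FR1, against 3.51, 3.63 and 3.53 in WL0. Its signal was dim in both groups, yet the groups did not overlap and it rose by 0.58 ± 0.12 (adjusted p = 0.000654). These 4 are the members of a list of 19 shade markers that had a probe set here, and 4 of 4 rose, with a median change of 2.18. The count stands beside 10.7% of all probe sets that rose, and the list was chosen with earlier results of these data known.

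Of the regulators beside these, WRKY22 (AT4G01250), a transcription factor gene studied in defence, read 6.74, 6.69 and 7.06 in FR1, against 4.86, 4.92 and 4.90 in WL0. Every FR1 array lay well above every WL0 array, and the gene rose by 1.93 ± 0.12 (3.81-fold, adjusted p = 3.5e-13). TCP15 (AT1G69690), of the TCP family of growth regulators, rose by 1.20 ± 0.15, BIM1 (AT5G08130), which encodes a partner of the brassinosteroid-response factors, by 0.96 ± 0.10, and bZIP52 (AT1G06850) by 0.92 ± 0.10. NAC014 (AT1G33060), a NAC transcription factor gene, rose by 0.79 ± 0.12, and bHLH121 (AT3G19860) by 0.46 ± 0.07, while bHLH34 (AT3G23210) fell by 0.46 ± 0.11. TCP15, BIM1 and bZIP52 were chosen for description after their values were seen. HYH (AT3G17609), a homologue of the light-growth regulator HY5, changed by -0.31 ± 0.09 and its call ended without WT FR1 replicate 2 (adjusted p = 0.0925), WT FR1 replicate 3 (0.0672), WT WL0 replicate 1 (0.0542) or WT WL0 replicate 3 (0.0771). SPT, the only gene of the PIF list with a probe set here, changed by -0.07 ± 0.12 (adjusted p = 0.751). None of the 4 measured clock genes was called, and GI, a clock and flowering gene, read 4.47, 4.80 and 4.80 in FR1, against 4.69, 4.96 and 4.72 in WL0, with overlapping groups.

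Some but not all of the measured Aux/IAA and GH3 genes rose. Of 7 Aux/IAA genes with a probe set, out of 29 listed, 4 rose and 0 fell, while 10.7% of all probe sets rose. The median change of the 7 genes was 0.83. Beside IAA29 the rises were IAA34 (AT1G15050), by 1.09 ± 0.14, IAA30 (AT3G62100), by 0.93 ± 0.14, and IAA20 (AT2G46990), by 0.83 ± 0.15. IAA30 read 5.55, 4.62 and 4.72 in FR1, against 4.08, 3.91 and 4.12 in WL0, so that 1 FR1 array stood well above the other two. IAA18, IAA31 and IAA33 were not called, at 0.04, 0.16 and -0.23.

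GH3.3 (AT2G23170) and WES1 (AT4G27260) encode enzymes that join auxin to amino acids and so take it out of action. GH3.3 read 8.53, 8.51 and 8.74 in FR1, against 6.66, 6.97 and 6.99 in WL0, and WES1 read 8.45, 8.42 and 8.62 in FR1, against 7.61, 7.67 and 7.53 in WL0. Both sets of arrays were fully apart, with rises of 1.72 ± 0.12 and 0.90 ± 0.08 (adjusted p = 1.57e-12 and 3.77e-10). They were 2 of 5 GH3 genes measured, while 10.7% of all probe sets rose. GH3.1, GH3.17 and GH3.9 were not called, at 0.10, 0.15 and -0.26. YUC2 (AT4G13260), of the last step of auxin synthesis, was called at 0.43 ± 0.13, but not without WT FR1 replicate 3 (adjusted p = 0.0909) or WT WL0 replicate 2 (0.0637), nor with reference-gene scaling (0.0737). Its relatives YUC4 and YUC6 changed by -0.05 and -0.09 and were not called. The 3 gibberellin receptor genes were not called either, between -0.11 and 0.11.

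**Figure D2:**
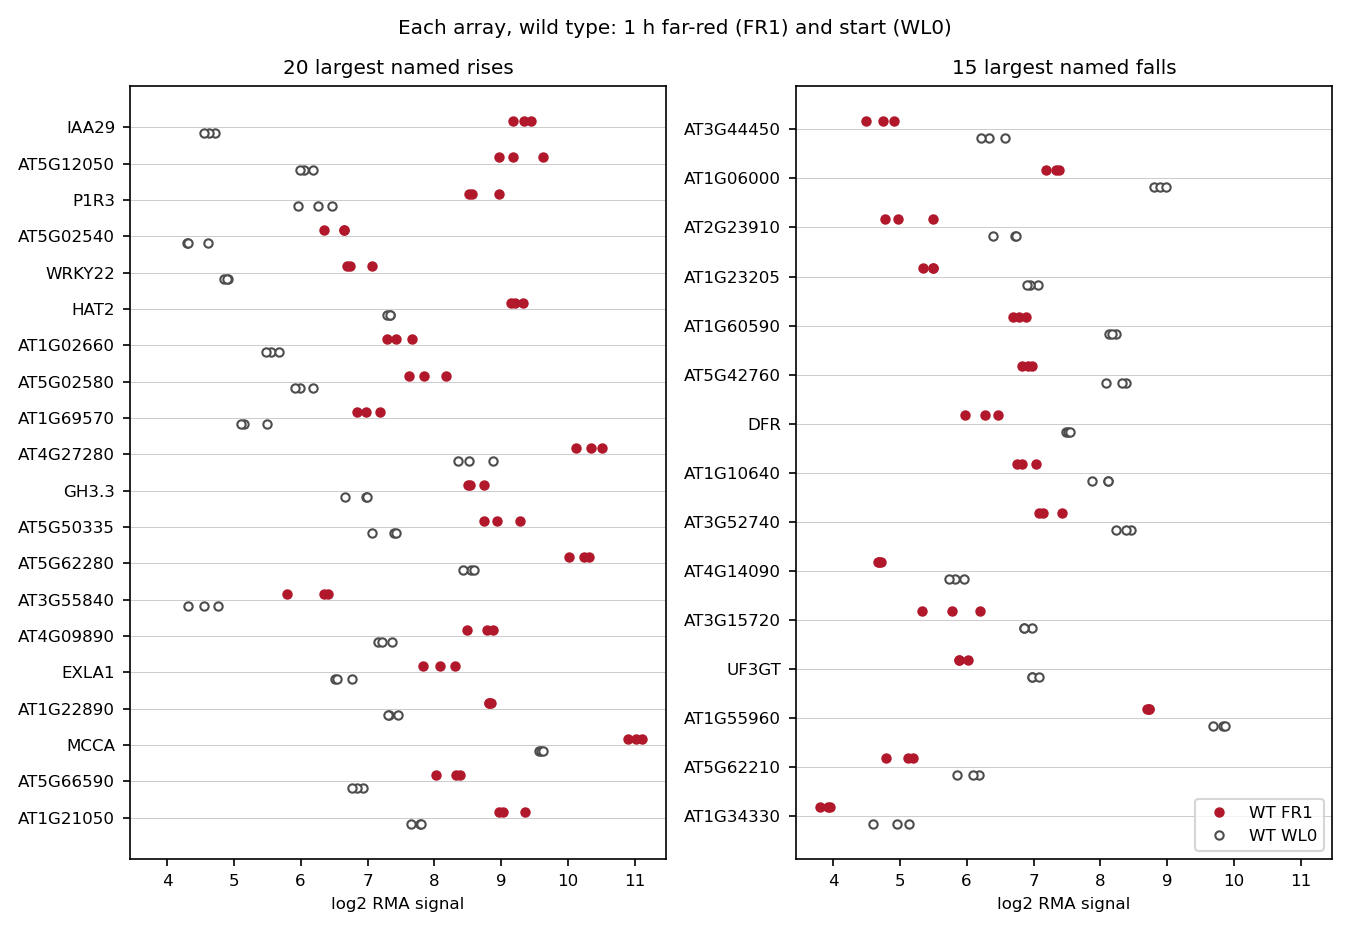
Log2 RMA signal of each array for the 20 largest rises and 15 largest falls with 1 locus, with filled red points for the 3 WT FR1 arrays and open points for the 3 WT WL0 arrays. In each of these 35 genes the 2 groups of arrays are apart, and IAA29 shows the widest gap, with FR1 arrays at 9.17 to 9.45 and WL0 arrays at 4.55 to 4.72.

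Wall-loosening genes, which encode expansins and xyloglucan-modifying enzymes, rose more often than they fell. Of 14 with a probe set 6 rose and 2 fell, with a median change of 0.28. Over all probe sets 10.7% rose and 12.5% fell, so the 2 falls of 14 are near the general share. EXLA1 (AT3G45970), an expansin-like gene, read 8.31, 7.83 and 8.09 in FR1, against 6.52, 6.77 and 6.54 in WL0, and rose by 1.47 ± 0.11 (2.77-fold, adjusted p = 2.49e-11). Its relatives EXLA2 and EXLA3 rose by 0.82 ± 0.11 and 0.62 ± 0.13, so all 3 EXLA genes rose. XTH33 rose by 0.64 ± 0.12, EXPA4 by 0.57 ± 0.07 and EXPA8 by 0.56 ± 0.11. EXPB3 fell by 0.46 ± 0.12. The other fall, XTH20 (-0.34 ± 0.12), was a weak call (adjusted p = 0.0331): the count of falls was 1 without WT FR1 replicate 1 or 3, and 1 without any single WL0 array. XTH19 was not called and read 9.63, 9.18 and 9.49 in FR1, against 9.08, 9.20 and 9.03 in WL0, and its groups overlapped.

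Among the 20 largest rises of single-locus probe sets, 13 were at loci to which the gene table gives no symbol. AT5G12050 read 9.17, 8.97 and 9.63 in FR1, against 6.05, 6.19 and 5.99 in WL0, and was second to IAA29 among single-locus probe sets, with 3.19 ± 0.16 (9.1-fold, adjusted p = 3.17e-15). AT5G02540 read 6.65, 6.35 and 6.65 in FR1, against 4.61, 4.30 and 4.32 in WL0, a rise of 2.14 ± 0.17. AT5G02580 read 8.18, 7.84 and 7.62 in FR1, against 5.99, 5.92 and 6.19 in WL0, a rise of 1.85 ± 0.12. The last 2 loci lie close together on chromosome 5, with 3 protein-coding genes between them in the gene table. The others, AT1G02660, AT4G27280, AT1G69570, AT5G50335, AT5G62280, AT3G55840, AT4G09890, AT1G22890, AT5G66590 and AT1G21050, rose by 1.37 to 1.90. The 20th of these rises stood at 1.37 and the 21st, AT4G37220, at 1.36.

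Genes of amino acid breakdown rose together. A list of 20 genes covered carbon starvation and the breakdown of the branched-chain amino acids leucine, isoleucine and valine. Of its 7 measured members 6 rose and 0 fell, while 10.7% of all probe sets rose. The median of the list was 0.77, against -0.0259 over all probe sets. The list was chosen with earlier results of these data known, so these values are a description. MCCA (AT1G03090), a subunit of the leucine-degrading enzyme methylcrotonyl-CoA carboxylase, read 10.90, 11.10 and 11.01 in FR1, against 9.56, 9.59 and 9.62 in WL0. This is a rise of 1.41 ± 0.10 (2.66-fold, adjusted p = 4.76e-12) in a gene already bright at the start. MCCB, the other subunit, rose by 0.73 ± 0.10, IVD, the dehydrogenase of the step before, by 0.79 ± 0.11, and ETFQO, which passes its electrons to the respiratory chain, by 0.77 ± 0.10. MGL (AT1G64660), the methionine gamma-lyase gene, read 6.80, 6.95 and 7.14 in FR1, against 6.01, 6.09 and 6.05 in WL0, and rose by 0.91 ± 0.10 (adjusted p = 1.99e-08). AKINBETA1, a subunit of the energy-sensing SnRK1 kinase, rose by 0.50 ± 0.11. D2HGDH was not called, at 0.09 ± 0.09.

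Autophagy genes, whose products enclose and deliver cell contents to the vacuole for breakdown, rose in a like manner. Of 11 genes found by symbol or synonym 9 rose and 0 fell, while 10.7% of all probe sets rose. The median of the 11 genes was 0.56. Autophagy was likewise chosen with earlier results of these data known, so the count is a description. The count of rises was 7 without WT FR1 replicate 1, WT WL0 replicate 2 or WT WL0 replicate 3, and 7 with reference-gene scaling. Members of the ATG8 family, small proteins coupled to lipid on the growing membrane, made up most of them. ATG8E (AT2G45170) read 9.53, 9.37 and 9.54 in FR1, against 8.81, 8.73 and 8.67 in WL0, and rose by 0.74 ± 0.11 (adjusted p = 1.44e-05). ATG8G, ATG8C, APG8H, ATG8F and ATG8B rose by 0.56 to 0.65. AT5G66930, which has the synonym ATG101, a part of the kinase complex that starts autophagy, rose by 0.43 ± 0.09. ATG3 and ATG8D were not called, at 0.10 and 0.17.

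Flavonoid genes fell together. All 7 members of the list of 23 that had a probe set fell, with a median of -0.93, while 12.5% of all probe sets fell. This list too was chosen with earlier results of these data known. DFR (AT5G42800), the dihydroflavonol reductase gene at the entry to anthocyanins, read 6.47, 6.28 and 5.98 in FR1, against 7.49, 7.52 and 7.55 in WL0, and fell by 1.28 ± 0.19 (adjusted p = 8.72e-06). UF3GT (AT5G54060), a sugar transferase gene of anthocyanin decoration, read 5.89, 5.88 and 6.02 in FR1, against 6.98, 6.97 and 7.08 in WL0, and fell by 1.08 ± 0.12. In both genes the highest FR1 array lay below the lowest WL0 array. AT4G14090 fell by 1.14 ± 0.11. UGT78D2 and UGT78D1, which attach glucose and rhamnose to flavonols, fell by 0.93 ± 0.08 and by 0.88 ± 0.08. CHIL, a chalcone isomerase-like gene, fell by 0.85 ± 0.09 and the malonyltransferase gene AT5MAT by 0.64 ± 0.12.

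In the wider family of UDP-glycosyltransferases, enzymes that attach sugars to hormones and secondary metabolites, 13 of 51 fell and 1 rose, with a median of -0.12, while 12.5% of all probe sets fell. UF3GT, UGT78D1 and UGT78D2 are among the 13. Outside flavonoids, UGT74D1 read 8.45, 8.46 and 8.69 in FR1, against 9.23, 9.31 and 9.27 in WL0, and fell by 0.74 ± 0.09 (adjusted p = 2.56e-07). GT72B1 fell by 0.71 ± 0.10, UGT72E2 by 0.45 ± 0.09 and UGT72B3 by 0.45 ± 0.11. The 1 rise, UGT73D1, was 0.35 ± 0.11, and the count of rises was 0 without WT FR1 replicate 1 or WT WL0 replicate 2.

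Chlorophyll genes fell slightly and photosystem genes showed no common direction. GSA1 (AT5G63570), of an early step of the pathway, read 9.52, 9.66 and 9.67 in FR1, against 10.10, 10.21 and 10.20 in WL0, and fell by 0.55 ± 0.09 (adjusted p = 5.35e-05). PORB, the light-dependent protochlorophyllide reductase gene, fell by 0.40 ± 0.10 and CHLI2, a magnesium chelatase subunit gene, by 0.39 ± 0.09. HEMB1 was the fourth call among 6 measured members at -0.25 ± 0.08 and was not called without WT FR1 replicate 1 (adjusted p = 0.2), WT WL0 replicate 2 (0.064) or WT WL0 replicate 3 (0.0569), nor with only the 6 arrays in the fit (0.0713). CHLM and LYC were not called. Of 8 photosystem and Rubisco genes PSBW and PSAN rose by 0.35 ± 0.08 and 0.33 ± 0.07, LHCB4.3 fell by 0.50 ± 0.12, and the median was 0.03. The calls in both lists stand beside 10.7% of all probe sets called higher and 12.5% called lower.

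**Figure D3:**
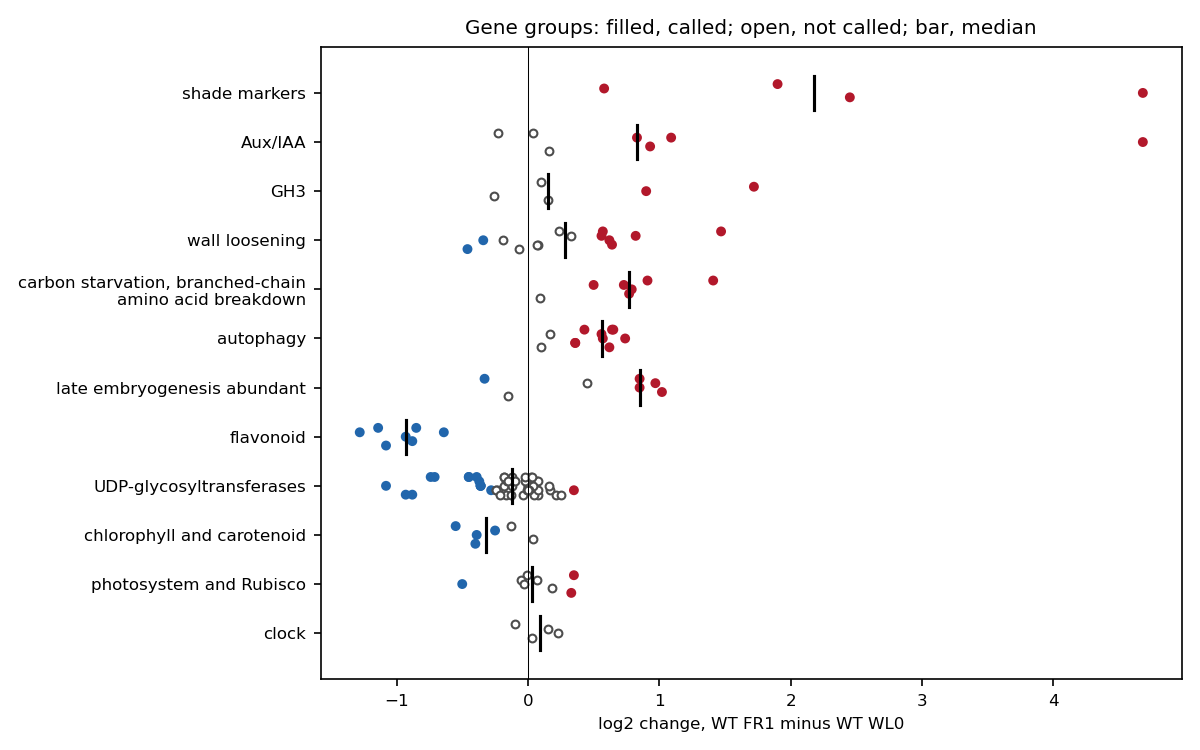
Log2 change (WT FR1 minus WT WL0) of each measured member of 12 gene groups, filled where called and open where not, with a black bar at the median of the group. All points of the flavonoid group lie between -1.28 and -0.64, those of the shade markers between 0.58 and 4.68, and the clock genes lie near 0.

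The largest fall of all probe sets was at AT3G44450, which read 4.91, 4.75 and 4.50 in FR1, against 6.33, 6.21 and 6.58 in WL0, and fell by 1.65 ± 0.14 (3.14-fold, adjusted p = 3.22e-10). AT1G06000 read 7.38, 7.19 and 7.33 in FR1, against 8.80, 8.89 and 8.98 in WL0, and fell by 1.59 ± 0.12. AT2G23910 read 5.49, 4.98 and 4.78 in FR1, against 6.40, 6.72 and 6.74 in WL0, and fell by 1.54 ± 0.18. The falls were thus smaller than the rises of the same rank. Further loci without a symbol in the 15 largest falls with a single locus were AT1G23205, AT1G60590, AT5G42760, AT1G10640, AT3G52740, AT3G15720, AT1G55960, AT5G62210 and AT1G34330, the last a transcribed pseudogene in the gene table, which fell by 1.01 to 1.53. The 16th fall among single-locus probe sets was GTR1 (AT3G47960), a glucosinolate transporter gene, at -1.0, and its relative GTR2 fell by 0.56 ± 0.11.

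Root hair markers and a gene of seed oil use also differed. Photosystem genes were bright on all arrays, with list means of 12.48 to 12.67 in FR1 and 12.49 to 12.55 in WL0. The root hair list, with 3 of its 15 genes measured, averaged 7.15 to 7.35 in FR1 and 7.63 to 7.76 in WL0. EXPA7 fell by 0.60 ± 0.09 and EXPA18 by 0.42 ± 0.10, and XTH26 was not called at -0.42 ± 0.17. These 2 falls among 3 genes stand beside 12.5% of all probe sets called lower. ICL, the isocitrate lyase gene of seed oil use, read 12.25, 12.16 and 12.14 in FR1, against 12.47, 12.71 and 12.75 in WL0, and fell by 0.46 ± 0.13 (adjusted p = 0.00917). In whole seedlings fewer cells of a type and less RNA per cell cannot be told apart. The 4 measured genes of touch, wounding and early stress averaged 5.07 to 5.25 in FR1 and 4.64 to 4.78 in WL0, and WRKY22 is one of them. WRKY6 was called at -0.25 ± 0.09, but not without WT FR1 replicate 1 or 3 or any single WL0 array (adjusted p up to 0.184), and WRKY53 and STZ were not called, at 0.07 and 0.15. The small heat shock gene ATHSP22.0 stayed near the floor, at 3.36 to 3.52 in FR1 and 3.34 to 3.52 in WL0. The 3 reference genes averaged 8.01 to 8.04 in FR1 and 7.89 to 7.91 in WL0, and 1 of them, PEX4, was called at 0.32 ± 0.09, though not without WT FR1 replicate 1 (adjusted p = 0.0602) or WT WL0 replicate 2 (0.0539). The part of root, seed or handling markers in the results was not tested.

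Most of the large 1 h changes were also called in pifq, whose FR1 and WL0 arrays are separate from those of the wild type. In pifq 1325 probe sets were called (5.83%), 2.94% higher and 2.89% lower, and the count was 845 without pifq FR1 replicate 2. Of the 132 probe sets that rose at least 2-fold in the wild type, 104 were called higher in pifq and 0 lower. Their median change was 1.34 in the wild type and 0.849 in pifq. Of the 37 that fell at least 2-fold, 35 were called lower in pifq, with medians of -1.16 in the wild type and -0.915 in pifq. Since the probe sets were chosen for a large change in the wild type, the larger medians there are partly set by that choice. HAT2 read 8.77, 9.02 and 8.85 in pifq FR1, against 7.09, 7.17 and 6.99 in pifq WL0, a change of 1.80 ± 0.09 beside 1.90 ± 0.09 in the wild type. The 2 responses of HAT2 differed by 0.11 ± 0.13 (adjusted p = 0.802). GH3.3 changed by 1.72 ± 0.12 in the wild type and 1.74 ± 0.12 in pifq, MCCA by 1.41 ± 0.10 and 1.33 ± 0.10, and UGT78D2 by -0.93 ± 0.08 and -0.97 ± 0.08.

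The difference of the 2 responses, wild type minus pifq, was called in 108 probe sets (0.475%), 92 positive (0.404%) and 16 negative (0.0703%). The total was 68 without pifq WL0 replicate 2 and 338 without WT FR1 replicate 3. The 16 negative calls were 118 without WT FR1 replicate 3, 5 to 10 without any single one of 9 other arrays, and within 1.5 times of 16 only without pifq FR1 replicate 2 or pifq WL0 replicate 1. Of the 92 positive differences 91 were at probe sets that rose in the wild type, and of the 16 negative ones 15 were at probe sets that fell there. The response was called larger in the wild type for 48 of the 132 rises, and called different for 2 of the 37 falls. The arrays that chose these probe sets enter the difference too, so the 2 counts are descriptions.

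IAA29 rose in both lines and more so in the wild type. In pifq it read 7.63, 8.26 and 8.0 at FR1, against 4.55, 4.49 and 4.83 at WL0, so that both lines started alike and pifq ended lower. The responses were 4.68 ± 0.13 in the wild type and 3.34 ± 0.13 in pifq, and differed by 1.35 ± 0.18 (adjusted p = 3.04e-05). P1R3 read 6.73, 7.35 and 7.37 in pifq FR1, against 5.62, 5.93 and 5.91 in pifq WL0, and its responses differed by 1.13 ± 0.20 (adjusted p = 0.00187). AT5G02580 read 6.86, 6.86 and 6.90 in pifq FR1, against 6.42, 6.73 and 6.84 in pifq WL0. In pifq it was not called (0.21 ± 0.12), and the difference from the wild-type response was 1.64 ± 0.17 (adjusted p = 5.31e-07).

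Further rises of this kind were AT1G69570, with responses of 1.74 ± 0.13 in the wild type and 0.61 ± 0.13 in pifq (difference adjusted p = 0.000548), and AT5G50335, with 1.69 ± 0.13 and 0.63 ± 0.13 (0.00275). BIM1 changed by 0.96 ± 0.10 in the wild type and 0.20 ± 0.10 in pifq, where it was not called, and the difference of 0.76 ± 0.14 was called (adjusted p = 0.00489). MGL changed by 0.91 ± 0.10 in the wild type and 0.25 ± 0.10 in pifq, a difference of 0.67 ± 0.13 (adjusted p = 0.0109) whose call ended without pifq WL0 replicate 3 (0.0583). The WRKY22 difference, 0.79 ± 0.17 (adjusted p = 0.0228), was not called without pifq FR1 replicate 1 (adjusted p = 0.11), pifq WL0 replicate 2 (0.0958) or WT WL0 replicate 1 (0.0563). FHL changed by 0.58 ± 0.12 in the wild type and 0.02 ± 0.12 in pifq, but the difference of 0.56 ± 0.17 was not called (adjusted p = 0.16). The autophagy list had 9 of 11 members called higher in the wild type and 2 in pifq, ATG8E and ATG8F. Over all probe sets 10.7% were called higher in the wild type and 2.94% in pifq, so calls were fewer in pifq in general. No autophagy gene had a called difference of responses. ATG8E was not called in pifq without pifq FR1 replicate 3 (adjusted p = 0.0761) or pifq WL0 replicate 1 (0.109) or with only the 6 pifq arrays in the fit (0.0502), nor ATG8F without pifq FR1 replicate 2 (0.0524), pifq FR1 replicate 3 (0.0569) or pifq WL0 replicate 1 (0.0822).

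**Figure D4:**
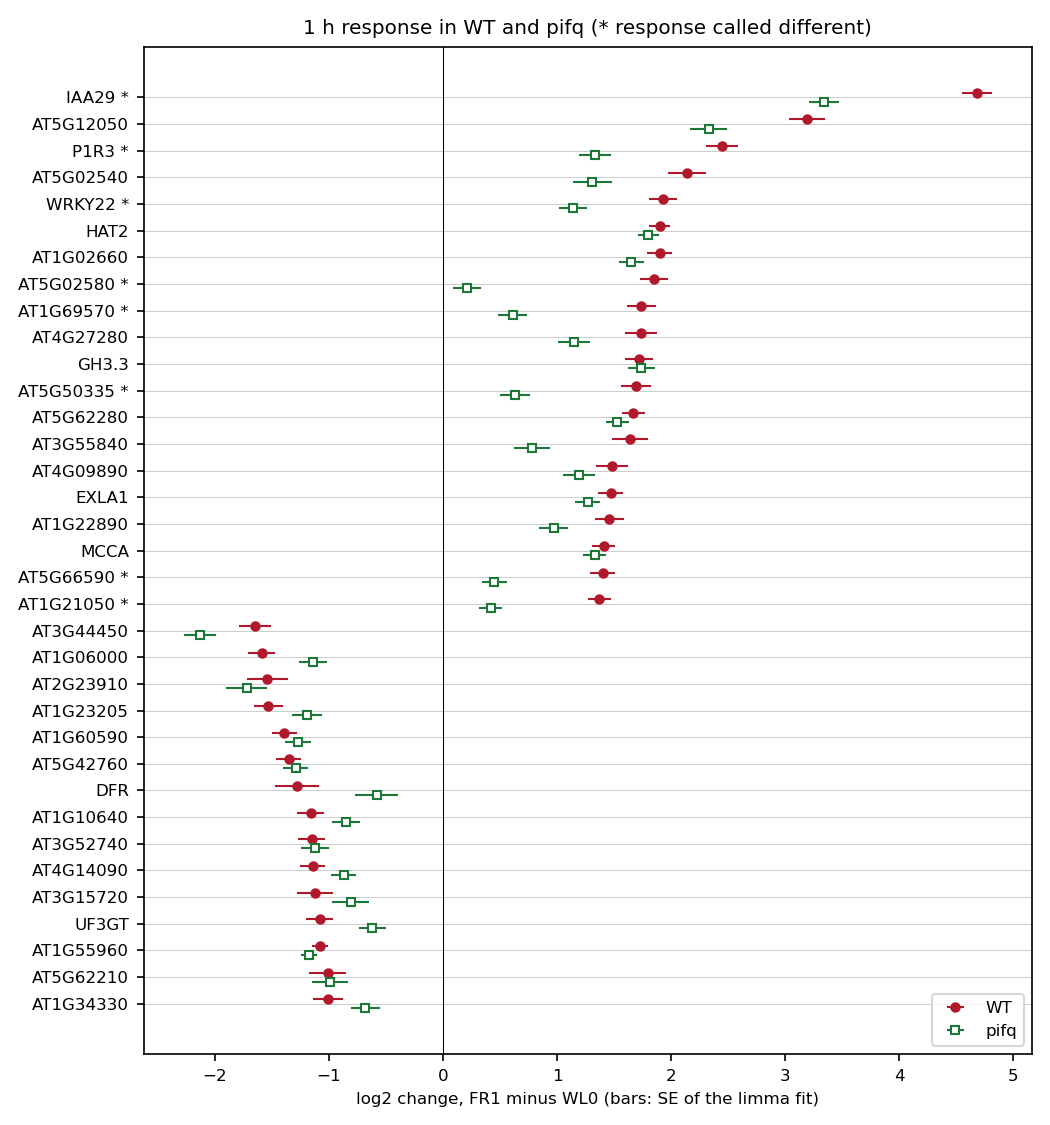
Log2 change at 1 h (FR1 minus WL0) ± SE of the limma fit for the 20 largest named rises and 15 largest named falls, with filled circles for the wild type and open squares for pifq. Asterisks mark the 8 genes whose response was called different. AT5G02580 shows the widest gap, at 1.85 in the wild type and 0.21 in pifq, and none of the 15 falls is marked.

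Late embryogenesis abundant (LEA) genes, which encode protective proteins of drying seeds and stressed tissue, differed in another way. This family was chosen after values had been seen. Of 7 measured members 4 rose in the wild type, 1 fell, and the same 4 had a called difference of responses. Across all probe sets 10.7% rose and 12.5% fell in the wild type, and 0.475% had a called difference. LEA4-5 (AT5G06760) read 8.15, 7.99 and 7.84 in wild-type FR1, against 7.07, 7.24 and 6.75 in wild-type WL0, and rose by 0.97 ± 0.13 (adjusted p = 2.66e-06). In pifq it read 9.31, 9.27 and 9.36 at FR1, against 9.34, 9.31 and 9.58 at WL0. It was thus above the wild-type level from the start in pifq and was not called between pifq FR1 and WL0 (-0.09 ± 0.13). The difference of responses was 1.07 ± 0.19 (adjusted p = 0.00245). LEA18 and AtLEA4-1 rose by 0.85 ± 0.14 and 0.85 ± 0.12 in the wild type, with called differences of 1.04 ± 0.20 and 0.92 ± 0.17. At WL0 LEA4-5, LEA18, AtLEA4-1 and M17 were higher in pifq than in the wild type by 2.35 to 3.05 (adjusted p up to 1.95e-07), a comparison that called 1.67% of probe sets, 1.24% higher and 0.431% lower. The calls of M17 were weak: its rise of 1.02 ± 0.33 (adjusted p = 0.0241) ended without WT FR1 replicate 1 or 3 or WT WL0 replicate 1 or 3 (adjusted p up to 0.134), and its difference of 1.99 ± 0.47 (adjusted p = 0.046) ended without any of 8 of the 12 arrays, all but WT FR1 replicate 3, WT WL0 replicate 2, pifq FR1 replicate 3 and pifq WL0 replicate 1 (adjusted p up to 0.168). With a trend and robust prior neither was called (adjusted p = 0.0672 and 0.111).

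Between 1 h and 3 h of far-red light some genes changed further, some turned back and others were not called. The comparison of FR3 with FR1 shares the FR1 arrays and called 20.2% of probe sets (10.2% higher, 9.93% lower), so its values stand beside the 1 h changes as a description. IAA29 stood at 4.63 ± 0.09 at WL0, 9.32 ± 0.14 at FR1 and 9.59 ± 0.07 at FR3 (SD, n = 3 arrays), and the last step, 0.27 ± 0.13, was not called. HAT2 read 8.49, 8.35 and 8.51 at FR3, against 9.21, 9.14 and 9.33 at FR1, a change of -0.77 ± 0.09 (adjusted p = 1.55e-07). GH3.3 likewise changed by -0.63 ± 0.12 from FR1 to FR3. AT5G02540 averaged 10.24 ± 0.15 at FR3, against 6.65, 6.35 and 6.65 in the FR1 arrays, a further change of 3.70 ± 0.17 (adjusted p = 1.62e-16). MGL averaged 8.81 ± 0.18 at FR3, against 6.97 ± 0.17 at FR1, and FHL 5.92 ± 0.32 at FR3, against 4.14 ± 0.12 at FR1. DFR fell further, to 3.99 ± 0.31 at FR3 against 6.24 ± 0.24 at FR1. AT3G44450, the largest fall at 1 h, changed by 0.07 ± 0.14 from FR1 to FR3.

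White light alone was sampled at 24 h and not at 1 h, so its values stand beside the 1 h changes as a description and do not separate the hour of age from far-red light. The comparison of WL24 with WL0 shares the WL0 arrays and called 48.1% of probe sets (24.5% higher, 23.6% lower). IAA29 was higher at WL24 than at WL0 by 1.55 ± 0.13, against 4.68 ± 0.13 for FR1 over WL0. GH3.3 was lower at WL24 (-2.31 ± 0.12), beside its rise of 1.72 ± 0.12 at FR1, and HAT2 was not called (0.13 ± 0.09). DFR was lower at WL24 (-4.15 ± 0.19), beside a change of -1.28 ± 0.19 at FR1. MCCA was higher at WL24 by 1.16 ± 0.10 and ATG8E by 1.05 ± 0.11. AT5G42760 and AT1G23205, which fell by 1.35 ± 0.11 and by 1.53 ± 0.13 at FR1, were not called over 24 h of white light (0.08 ± 0.11 and 0.12 ± 0.13).

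**Figure D5:**
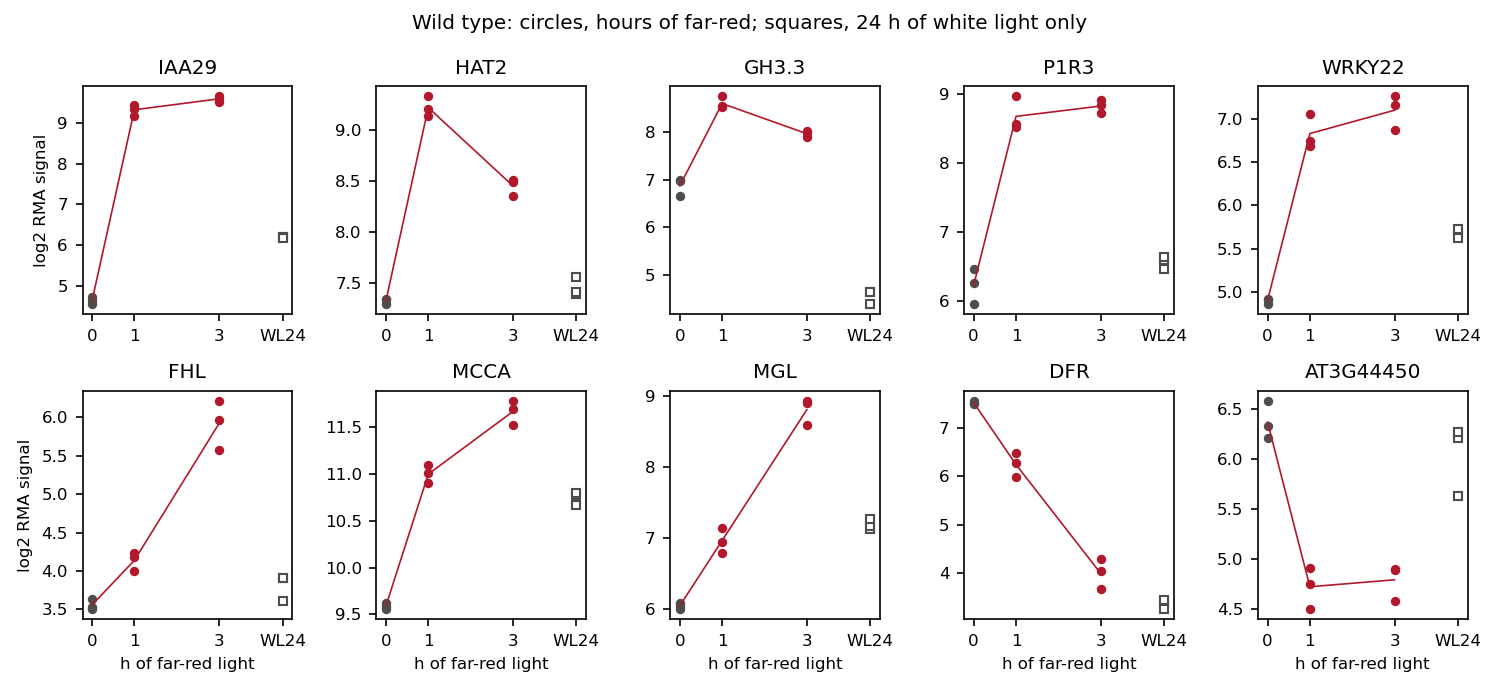
Log2 RMA signal of single wild-type arrays of 10 genes, with circles at 0 h (WL0), 1 h (FR1) and 3 h (FR3) of far-red light, a line through the means, and open squares at the right edge, off the time scale, for 24 h of white light alone (WL24). IAA29 and P1R3 differ little between 3 h and 1 h (0.27 and 0.15, neither called), HAT2 and GH3.3 stand lower at 3 h than at 1 h, FHL and MGL rise mostly after 1 h, and AT3G44450 is down by 1 h. Vertical axes differ between panels and do not start at 0.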

How the data were processed

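Expression was measured in whole seedlings on 1-colour arrays, 3 per group. The deposited values are log2 signals, for which the submitters' processing notes name RMA, its version not given in the sources used here. RMA sets all arrays to 1 distribution, which hides any shift common to most probe sets, and understates folds near the floor and ceiling of the signal. Array medians ran from 5.55 to 5.64. The table held 22810 probe sets, of which 64 controls were left out, and no filter on level was applied. Probe sets were named through the platform annotation and the gene table of RefSeq (assembly TAIR10.1) where they had exactly 1 locus (13436, or 59.1%), while 503 had several genes, 77 a gene ID without a locus and 8730 no gene in that annotation. Only 1551 had a symbol, so the lists hold few of their genes and no list result stands for a pathway. Annotation can be old, and related genes may share probes.

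A limma 3.58.1 model (R 4.3.3, lmFit and eBayes) with a term for each group used all 30 arrays (20 residual and 9.44 prior degrees of freedom), and was tested on simulated data. P-values are two-sided with Benjamini-Hochberg adjustment. The difference of responses was a contrast of the same fit. The text names the 20 largest rises and 15 largest falls with 1 locus that were called with no overlap of arrays, and of each of 29 lists and 23 symbol families up to 6 called members, or 2 where none was called. A locus was read from its brightest probe set on average. Members and lists were chosen with earlier results of these data known. LEA genes, M17, TCP15, P1R1, BIM1 and bZIP52 were added after values were seen, and some list members outside the rule are named to account for a list. Lists are described by counts and medians, without a set test. Families whose symbols catch unrelated genes are not reported.

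Deviations from the group mean were correlated between FR1 and WL0 arrays of the same replicate number. The correlations were 0.28, 0.15 and 0.12 in pifq and 0.09, -0.03 and -0.18 in the wild type. Arrays of unlike number were not compared, so these values do not show whether the numbers mark shared batches. With the numbers as a block, pifq calls were 1339, against 1325, and with only the 6 pifq arrays 1856, against 1323. Alternatives were arrays in the fit, the block, array weights, prior, dim filter, scaling and each array left out. Sequences and promoter motifs are not reported here.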

Additional observations from a re-analysis of the deposited data

Results flagged for a closer look

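For 16 named genes the response to 1 h of far-red light differed between the wild type and pifq, by the limma test of the difference itself. All 16 differences, wild type minus pifq on the log2 scale, are positive. Many of these genes were named for a large rise in the wild type or added after values were seen. The same wild-type arrays enter the difference, so the shared sign is partly set by that choice. Over all probe sets 92 differences were called positive and 16 negative. IAA29 differed by 1.35, P1R3 by 1.13, AT5G02580 by 1.64, AT1G69570 by 1.14, AT5G50335 by 1.06, AT5G66590 by 0.95, AT1G21050 by 0.95 and BIM1 by 0.76, each a larger rise in the wild type, and these calls held under every alternative run. LEA4-5 differed by 1.07, LEA18 by 1.04 and AtLEA4-1 by 0.92, genes that stood higher in pifq at WL0, and these held too.

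The other 5 calls ended in some setting. MGL differed by 0.67 and WRKY22 by 0.79, as described above. The bZIP52 difference of 0.66 was not called without pifq FR1 replicate 1 (adjusted p = 0.0751) or pifq WL0 replicate 3 (0.0696), or when arrays were scaled to the reference genes (0.068). P1R1 (AT5G57780), which rose by 0.73 ± 0.11 in the wild type and changed by 0.05 ± 0.11 in pifq, differed by 0.68 (adjusted p = 0.0329); that call ended without any of WT FR1 replicate 1 or 2, WT WL0 replicate 2 or 3, pifq FR1 replicate 3 or pifq WL0 replicate 2 or 3 (adjusted p up to 0.151), with reference-gene scaling (0.0797) or with only the 12 arrays in the fit (0.0549). M17 differed by 1.99, with the limits given with the LEA genes.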

How the results depend on the processing

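Of 132 named genes 122 were called between FR1 and WL0, 99 kept the call under every alternative and 0 reversed. The 5267 calls ranged from 3678 to 5293 when 1 array was left out and were 5220 with only the 6 arrays in the fit. With a replicate block they were 4800 in those 6 arrays and 5321 in all 30. The labels name no block, and the block moved no count by over 1.5 times. Array weights gave 6980. Reference-gene scaling subtracted from each array its mean over the 3 reference genes. These changed by -0.04 to 0.32 from WL0 to FR1, with PEX4 highest. The scaling moved the median of all probe sets to -0.153 and gave 1282 rises and 6344 falls, 90 of them at least 2-fold. Of its calls 16.8% were higher, against 46.2%. Why the reference genes changed was not tested. The pifq count of 1325 was 2405 with array weights and 845 to 1042 without 1 pifq array. The 108 differences of responses were 714 with array weights (372 positive, 342 negative), 180 with a trend and robust prior (44 negative), and 68 to 338 without 1 array (63 to 220 positive, 5 to 118 negative). The 16 negative differences of responses were 27 with only the 12 arrays, 27 with reference scaling and 33 without the dimmest 40% of probe sets. The 380 calls between pifq WL0 and WT WL0 were 1116 with array weights and 237 to 303 without 1 array. Beside single arrays, reference-gene scaling ended the calls of YUC2, EIN3, GSTU16, HIS1-3, IQD26, PEX4 and PHV, the block in the 6 arrays those of ARR15, EIN3, GSTU16, HEMB1 and WRKY6, only the 6 arrays those of EIN3 and HEMB1, only the 15 wild-type arrays those of EIN3 and IQD26, a trend prior those of ARR15, M17 and WRKY6, and array weights or median centring that of WRKY6. At an unadjusted p under 0.05, 7457 probe sets passed for FR1 against WL0 and 2717 for the difference. Alternatives for the pifq response, FR3 against FR1, WL24 against WL0 and pifq WL0 against WT WL0, and the scalings and dim filter for the difference, were added after the data were seen. The promoter motif descriptions that had been planned were not run, as no promoter sequence was used. Dim probe sets give compressed folds, and 3 arrays a group limit every value.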

Other observations

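ATSPS4F (AT4G10120), a sucrose phosphate synthase gene, read 4.61, 5.05 and 5.18 in FR1, against 5.87, 5.92 and 5.58 in WL0, and fell by 0.85 ± 0.14 (limma adjusted p = 3.62e-05). In pifq it changed by -1.17 ± 0.14, and the responses did not differ by a called amount (0.33 ± 0.20, adjusted p = 0.531). Of 16 sugar transporter genes 3 were called lower and 0 higher, with a median of -0.08, near the 12.5% of all probe sets called lower, and the count of falls was 2 without WT FR1 replicate 2 or 3 or WT WL0 replicate 1 or 2. SWEET1 fell by 0.56 ± 0.08 and SWEET11 by 0.41 ± 0.08, both of them genes of sugar efflux carriers. Over 24 h of white light ATSPS4F and SWEET11 were higher than at WL0, by 1.40 ± 0.14 and 0.54 ± 0.08.

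Of 14 glutathione transferase genes, whose products detoxify reactive compounds, 2 were called higher and 3 lower, with a median change of 0.01. These counts stand beside 10.7% of all probe sets called higher and 12.5% called lower. GSTU18 rose by 0.50 ± 0.07 and GSTU20 fell by 0.59 ± 0.09, both with no overlap of arrays. GSTU16 was not called without WT FR1 replicate 1 or 3 or WT WL0 replicate 2 or 3, nor GSTU26 without WT FR1 replicate 2 or WT WL0 replicate 1. The cytochrome P450 genes CYP71B37 and CYP71B6 fell by 0.58 ± 0.13 and by 0.42 ± 0.08. OTP81, of chloroplast transcript editing, fell by 0.64 ± 0.16, and PRL, a replication helicase subunit gene and the 1 measured gene of the cell division list, by 0.39 ± 0.10.

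Some calls rested on few arrays. Of 5 genes of stomata and hairs on the epidermis 2 were called lower, while 12.5% of all probe sets were called lower. SPCH, which starts the stomatal lineage, changed by -0.39 ± 0.11 and was not called without WT FR1 replicate 1 (adjusted p = 0.0538) or WT WL0 replicate 2 (0.0659). TRY, a repressor of hairs, changed by -0.57 ± 0.14 and was not called without WT WL0 replicate 1 (0.052). EIN3, of ethylene signalling, changed by 0.28 ± 0.08 and was not called without WT FR1 replicate 3 (0.149) or WT WL0 replicate 1 (0.0734), with reference-gene scaling (0.203), with only the 15 wild-type arrays (0.052) or only the 6 arrays compared (0.0682), or with the replicate block in those 6 (0.0539). ATL8 changed by 0.58 ± 0.15 and was not called without WT WL0 replicate 3 (0.0504). Of 8 genes of organelle transcript processing 3 were called lower, of which OTP84 was not called without WT WL0 replicate 1 (0.0606) and OTP87 not without WT FR1 replicate 1 (0.0715). Among the remaining lists, 1 of 2 cytokinin genes was called lower, 1 of 4 genes of water deficit and cold higher, 2 of 15 IQ-domain genes higher, 2 of 3 homeodomain genes higher and 1 of 16 mostly chloroplast-encoded ribosomal protein genes lower, while 10.7% of all probe sets were called higher. Of these calls iqd32 (0.50 ± 0.09) and HAT2 held without any single array. ARR15 was not called without WT FR1 replicate 2 or 3 or WT WL0 replicate 2 or 3, HIS1-3 not without WT FR1 replicate 1 or 3 or WT WL0 replicate 3, and IQD26 not without WT FR1 replicate 1 or 2 or WT WL0 replicate 3. The call of PHV ended without any single array of the 6, and that of AT1G77750 without any single array but WT WL0 replicate 2. The lists of growth bHLH, SAUR, brassinosteroid, and flower and pollen genes had 0 probe sets with a single locus.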
